A study of Caenorhabditis elegans with 16 samples.

Results

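The *nas-* genes of C. elegans encode astacins, a family of secreted zinc metalloproteases, and their mRNA was followed in whole worms of 4 genotypes. A gene was taken as a member where it is protein-coding and its symbol starts with nas-, which gave 34 of the 23758 genes of the count tables. All 34 are described here, whatever their level. *nas-2* and *nas-18* were not analysed here. The study asked which transcripts depend on the heat shock factor HSF-1 and on the ubiquilin UBQL-1, a shuttle factor that carries ubiquitylated proteins to degradation. RNA was taken from worms on day 1 of adulthood, grown at 20 °C on E. coli OP50 and synchronised by egg laying, with 4 biological replicates of each genotype.

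The genotypes were *hsf-1* OE, wildtype N2, *ubql-1(tm1574)*, and a strain made by crossing that carries both *hsf-1* OE and *ubql-1(tm1574)*, called the double strain below. The *hsf-1* OE worms carry an integrated array with *hsf-1* under the *sur-5* promoter and the marker tdTomato under the promoter of *myo-2*, a pharyngeal myosin. *ubql-1(tm1574)* is a deletion that leaves a truncated mRNA. Each transgene or allele was studied in 1 strain. The comparisons were *hsf-1* OE against wildtype, the double strain against *ubql-1(tm1574)*, *ubql-1(tm1574)* against wildtype and the double strain against *hsf-1* OE.

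Astacins are made as inactive precursors, and the removal of a prodomain frees the zinc-binding active site. Relatives outside nematodes include BMP1 and tolloid, which trim procollagens and release growth factors of the BMP class, and the meprins. In worms the known members act largely on the apical matrix: the cuticle, a collagen coat that is rebuilt and shed at each moult, and the cuticle of the pharynx. Moulting ends before adulthood, and in larvae many genes of the cuticle cycle on and off with each moult.

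Total counts per library ran from 18202151 to 30524762. *ubql-1* averaged 1788 ± 124 normalised counts in *ubql-1(tm1574)* and 4055 ± 106 in wildtype (SD, n = 4 each). *hsf-1* mRNA was not higher in the libraries labelled *hsf-1* OE, with 1994 ± 368 normalised counts there and 2412 ± 136 in wildtype and a log2 fold change of -0.13 (SE 0.13, adjusted p = 0.386), so *hsf-1* OE below means the libraries labelled so. This and every other adjusted p is from edgeR's quasi-likelihood test unless DESeq2 is named, adjusted after Benjamini and Hochberg over all genes tested. Markers of adult worm tissues (intestine, muscle, neurons, pharynx, germline) were above 0 in every genotype. A normalised count is a count divided by the library's size after TMM scaling over all 16 libraries, relative to their mean. In these units the log2 difference between *hsf-1* OE and wildtype lies lower by 0.14 for the median gene than in the test, which scaled the 8 libraries of that comparison alone. Within *hsf-1* OE and the double strain, replicates 3 and 4 differed from replicates 1 and 2 in cuticle genes. For the summed collagens that shape the body they were higher in wildtype and *ubql-1(tm1574)* too. Counts of members that were higher are therefore also given over replicates 1 and 2 and over replicates 3 and 4. This was done only for *hsf-1* OE against wildtype and for the double strain against *ubql-1(tm1574)*.

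In wildtype adults 4 members stood far above the rest. *nas-11* had 24.8 ± 1.48 RPKM (reads scaled to gene length and to TMM-scaled library size, SD, n = 4), *nas-20* 12.5 ± 6.61, *nas-37* 10.4 ± 1.09 and *nas-9* 9.48 ± 1.74. *nas-20*, *nas-37* and *nas-9* did not differ beyond their spread, while every wildtype library of *nas-11* lay above every library of those 3. *nas-7*, the fifth, had 3.11 ± 0.715 RPKM and *nas-39*, the sixth, 2.24 ± 0.167. All other members were at or below 0.948 RPKM, the mean of *nas-32*. The 4 leading genes held 61.2% of all *nas-* counts in *hsf-1* OE, 78.9% in wildtype, 57.8% in the double strain and 73.3% in *ubql-1(tm1574)*.

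At the other end, *nas-16*, *nas-17* and *nas-19*, which lie close together on chromosome V, had 7 counts together over all 16 libraries. A count of 0 in a library still allows up to 3 counts of its total. Of the 34 members, 27 averaged 10 or more normalised counts in *hsf-1* OE, 17 in wildtype, 27 in the double strain and 21 in *ubql-1(tm1574)*. The family's share of the library was 199 ± 28.7 CPM (counts scaled to the library total) in *hsf-1* OE, 122 ± 3.59 in wildtype, 191 ± 30.1 in the double strain and 128 ± 3.36 in *ubql-1(tm1574)* (SD, n = 4 each). All 4 libraries of *hsf-1* OE and of the double strain exceeded all 8 libraries without the transgene. RNA came from whole animals, so fewer cells of a type and less RNA per cell cannot be told apart.

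**Figure D1:**
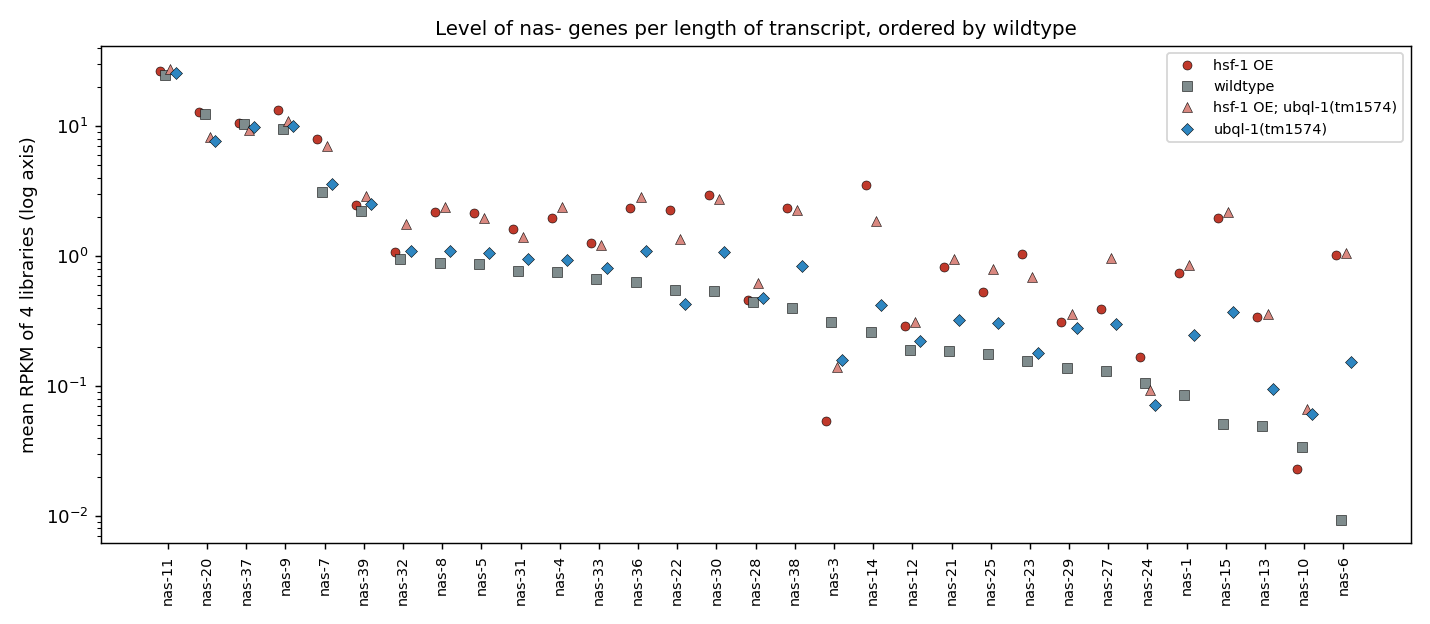
Mean level per length (RPKM, log axis) of the 31 members that were above 0 in all 4 genotypes, ordered by wildtype, with 1 symbol per genotype and each symbol the mean of 4 libraries. *nas-11*, *nas-20*, *nas-37* and *nas-9* led in every genotype, and the symbols of *hsf-1* OE and the double strain lay above those of wildtype and *ubql-1(tm1574)* for most of the members in the middle of the range.

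The 34 genes are spread over all 6 chromosomes, with 11 on chromosome V and 8 on X. Their longest predicted proteins run from 270 residues for *nas-1* to 928 for *nas-39*, with a median of 449. The members that rose in *hsf-1* OE against wildtype (below) had a median of 503 residues, the tested members that did not had 579, and those too low to be tested had 398.

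In libraries labelled *hsf-1* OE a part of the *nas-* genes was higher than in wildtype. None of the 4 leading ones passed both thresholds given next, though *nas-9* was higher by less than the fold threshold. Against wildtype, 13 of the 34 members rose past both thresholds (an absolute log2 fold change above 1 at an adjusted p below 0.05) and 0 fell. Of all 14794 genes tested, 22.6% rose and 3.6% fell by the same rule. The 13 were *nas-4*, *nas-5*, *nas-7*, *nas-8*, *nas-14*, *nas-21*, *nas-22*, *nas-23*, *nas-30*, *nas-31*, *nas-33*, *nas-36* and *nas-38*. 20 members passed the filter on low counts, and 14 did not. A member can pass that filter through the group where it is high, so the members with a mean of 10 or more normalised counts in wildtype were also counted: 10 of these 17 rose, against 19.3% of all genes with that level in wildtype. Their median log2 fold change was 1.21, and 0.22 for all genes of that level.

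The members known from the moult differed among themselves. *nas-36*, which with *nas-37* is needed to shed the old cuticle, had 76.8, 97.2, 139 and 168 normalised counts in replicates 1 to 4 of *hsf-1* OE, against 24, 28.6, 42.9 and 33.8 in wildtype. All 4 libraries of *hsf-1* OE lay above all 4 of wildtype, and the log2 fold change was 2.05 (SE 0.32, adjusted p = 0.000568). *nas-37* had 570.0, 739, 557 and 698 normalised counts in *hsf-1* OE, against 584, 652, 706 and 562 in wildtype. The groups overlapped, and its log2 fold change of 0.18 (SE 0.14, adjusted p = 0.271) turned to -0.026 in DESeq2. So of this pair, the weakly expressed enzyme rose and the strongly expressed one did not pass the test.

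*nas-38* (chromosome X, 558141 to 563657 in WBcel235), which acts in moulting and in the sleep-like quiescence that goes with it, had 41.3, 91.8, 204 and 178 normalised counts in *hsf-1* OE, against 19.2, 10.7, 26.8 and 31 in wildtype. The lowest library of *hsf-1* OE lay above the highest of wildtype, and the log2 fold change was 2.70 (SE 0.54, adjusted p = 0.00199). *nas-6*, an enzyme of the pharyngeal grinder that crushes bacteria, had 7.88, 20.7, 27.7 and 44 normalised counts in *hsf-1* OE, against 0, 0, 0 and 0.913 in wildtype, where a single read was counted. With 103 counts against 1 the ratio of the sums was 87.7 (exact 95% interval 15.4 to 3496, counting error only). *nas-6* failed the filter on low counts in the edgeR fit, and with DESeq2 it passed (adjusted p = 2.1e-06). *nas-39*, the homologue of tolloid and BMP1, had 193, 170.0, 231 and 147 normalised counts in *hsf-1* OE, against 166, 169, 153 and 184 in wildtype, with overlapping groups and a log2 fold change of 0.27 (SE 0.17, adjusted p = 0.164). 276 of its 3480 exonic bases are shared with F38E9.1.

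**Figure D2:**
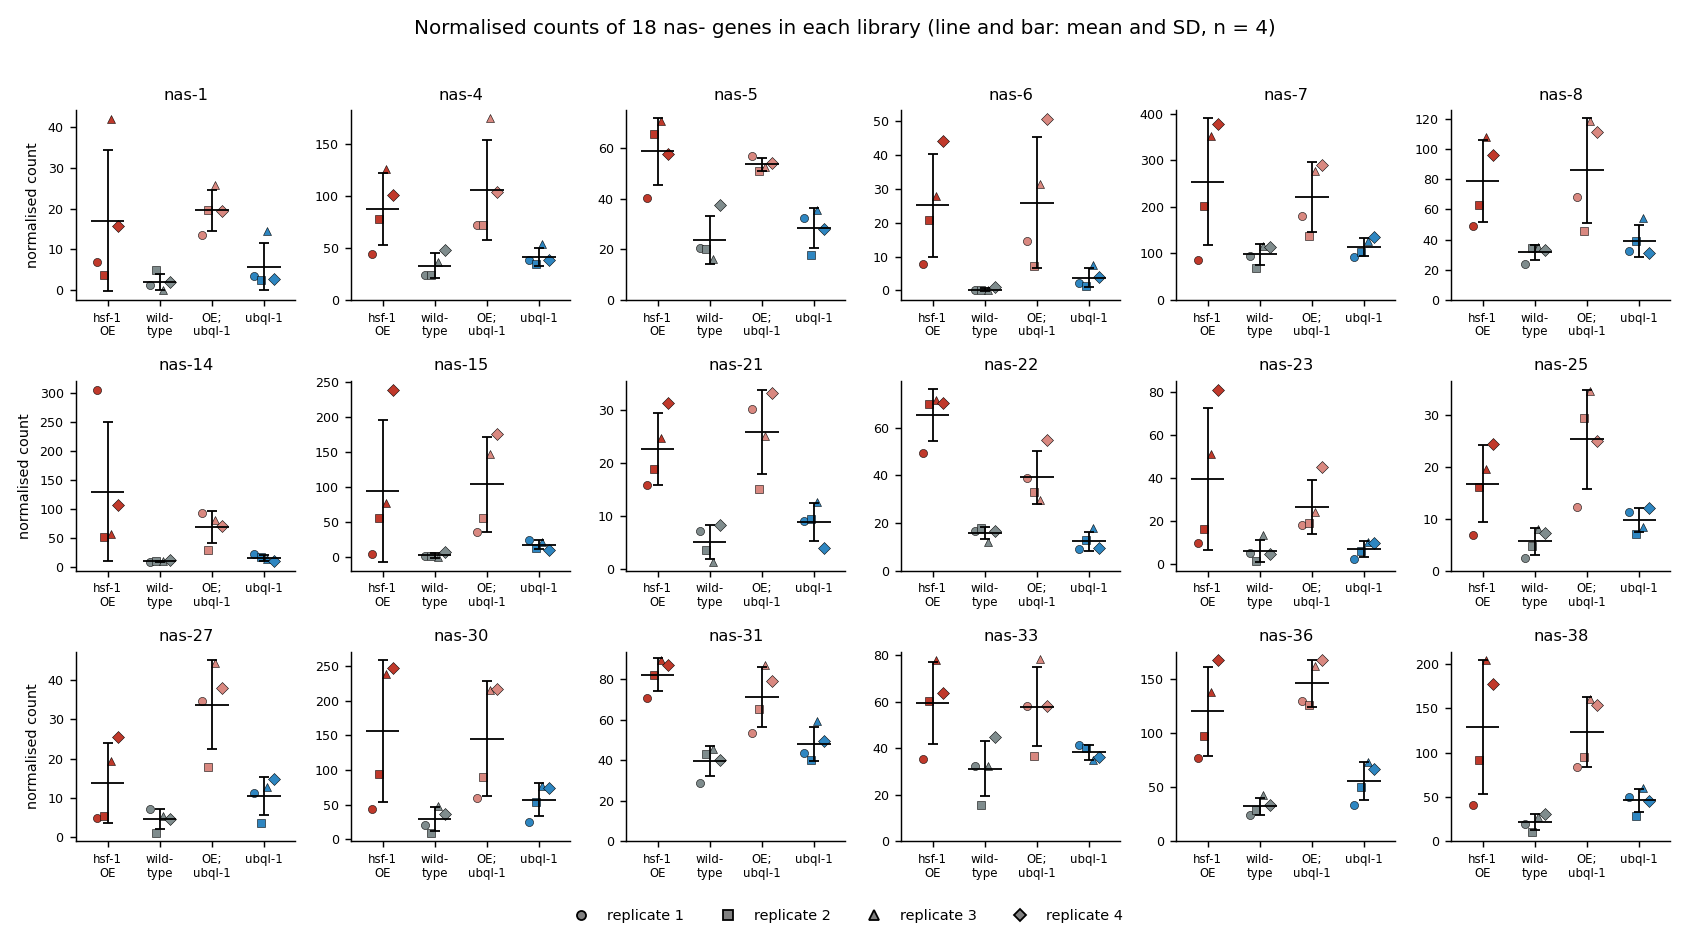
Normalised counts of 18 *nas-* genes in each library, 1 panel a gene, with *hsf-1* OE, wildtype, the double strain (OE; *ubql-1*) and *ubql-1(tm1574)* on the horizontal axis, points as libraries and lines with bars as mean and SD (n = 4). In most panels the libraries with the *hsf-1* OE transgene are higher and more widely spread than those without it, and replicates 3 and 4 tend to be the highest of them.

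The largest fitted change was that of *nas-14* (chromosome IV, 13170544 to 13173694). It had 306, 51.3, 56.5 and 107 normalised counts in replicates 1 to 4 of *hsf-1* OE, against 8.41, 9.54, 9.39 and 11 in wildtype. Replicate 1 of *hsf-1* OE exceeded the other 3 together, yet those too were all above wildtype. The log2 fold change was 3.83 (SE 0.60, adjusted p = 0.000569), and 2.89 without that library (adjusted p = 0.000143).

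*nas-23* and *nas-30*, with *nas-38*, had the next largest fitted changes. *nas-30* had 43.3, 94.5, 238 and 247 normalised counts in *hsf-1* OE, against 20.4, 9.54, 48.3 and 36.5 in wildtype. Replicate 1 of *hsf-1* OE overlapped wildtype, and the log2 fold change was 2.61 (SE 0.64, adjusted p = 0.00565). *nas-23* had 9.84, 16.2, 51.3 and 81.2 normalised counts in *hsf-1* OE, against 4.81, 1.19, 13.4 and 4.57 in wildtype. Again only replicate 1 of *hsf-1* OE fell within the wildtype range, at a log2 fold change of 2.91 (SE 0.81, adjusted p = 0.0103).

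*nas-20*, *nas-21* and *nas-22* are neighbours within 7152 bases of chromosome V (11470800 to 11477951 in WBcel235) and differed in both level and change. *nas-21* had 15.8, 18.9, 24.6 and 31.3 normalised counts in *hsf-1* OE, against 7.21, 3.58, 1.34 and 8.22 in wildtype. *nas-22* had 49.2, 70.2, 71.9 and 70.4 normalised counts in *hsf-1* OE, against 16.8, 17.9, 12.1 and 16.4 in wildtype. For both genes all libraries of *hsf-1* OE were above all of wildtype, with log2 fold changes of 2.21 (SE 0.46, adjusted p = 0.0024) for *nas-21* and 2.18 (SE 0.25, adjusted p = 0.000173) for *nas-22*. *nas-20*, the most abundant of the 3, had 329, 636, 198 and 316 normalised counts in *hsf-1* OE, against 536, 488, 130.2 and 277 in wildtype, with a spread within each genotype that exceeded the difference between them. Its log2 fold change was 0.18 (SE 0.46, adjusted p = 0.731), and -0.022 in DESeq2.

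*nas-4*, *nas-7* and *nas-8* rose to a similar degree. *nas-4* had 44.3, 78.3, 126 and 101 normalised counts in *hsf-1* OE, against 24, 23.9, 36.2 and 48.4 in wildtype, at a log2 fold change of 1.54 (SE 0.38, adjusted p = 0.00585). *nas-7* had 85.6, 201, 352 and 378 normalised counts in *hsf-1* OE, against 93.8, 68, 117 and 114 in wildtype, at a log2 fold change of 1.54 (SE 0.44, adjusted p = 0.0121). In both, replicate 1 of *hsf-1* OE lay within the wildtype range and the other 3 above it. *nas-8* had 49.2, 63, 108 and 95.9 normalised counts in *hsf-1* OE, against 24, 34.6, 34.9 and 32.9 in wildtype, without overlap, at a log2 fold change of 1.47 (SE 0.31, adjusted p = 0.00255). *nas-4* shares 437 of its 2324 exonic bases with C05D11.5 on the same strand, whose own log2 fold change was 0.42 (adjusted p = 0.0306), and how the reads of the shared part were assigned was not tested.

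*nas-5*, *nas-31* and *nas-33* made up the rest. *nas-5* had 40.4, 65.7, 70.8 and 57.7 normalised counts in *hsf-1* OE, against 20.4, 20.3, 16.1 and 37.4 in wildtype, at a log2 fold change of 1.44 (SE 0.32, adjusted p = 0.0036). *nas-31* had 70.9, 81.9, 89.3 and 87.1 normalised counts in *hsf-1* OE, against 28.8, 42.9, 45.6 and 40.2 in wildtype, at 1.21 (SE 0.22, adjusted p = 0.00109). Neither gene overlapped between the genotypes. *nas-33* had 35.4, 60.3, 78 and 63.6 normalised counts in *hsf-1* OE, against 32.5, 15.5, 32.2 and 44.7 in wildtype, and replicate 1 of *hsf-1* OE fell within the wildtype range. Its log2 fold change of 1.07 (SE 0.36, adjusted p = 0.0259) was the call that held least well: it was lost in 6 of the 8 fits that left out 1 library, and with DESeq2 (0.86).

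Of the 4 leading genes none rose past both thresholds. *nas-9* came nearest, with 560.1, 635, 556 and 527 normalised counts in *hsf-1* OE, against 311, 398, 493 and 417 in wildtype. All libraries of *hsf-1* OE were above those of wildtype, but its log2 fold change of 0.63 (SE 0.14, adjusted p = 0.00347) was under the fold threshold. *nas-11* had 1213, 1313, 1149 and 883 normalised counts in *hsf-1* OE, against 1065, 1013, 1157 and 1034 in wildtype, with overlapping groups and a log2 fold change of 0.23 (SE 0.11, adjusted p = 0.0907). *nas-28* and *nas-32*, the other members tested, had log2 fold changes of 0.21 and 0.33 (adjusted p = 0.523 and 0.142). Scaling moved the median gene of this comparison by -0.17 with DESeq2's size factors in edgeR and by 0.35 when libraries were scaled to the housekeeping genes *cdc-42*, *pmp-3* and *rpb-2*, so that 12 members and 19.4% of all genes rose with DESeq2's size factors. With the housekeeping scaling 13 of the 20 members tested and 33.2% of all genes tested rose. These 3 housekeeping genes had a median log2 fold change of -0.38 in the main fit. Their summed levels were 7759 to 9603 normalised counts in *hsf-1* OE and 11446 to 11876 in wildtype.

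**Figure D3:**
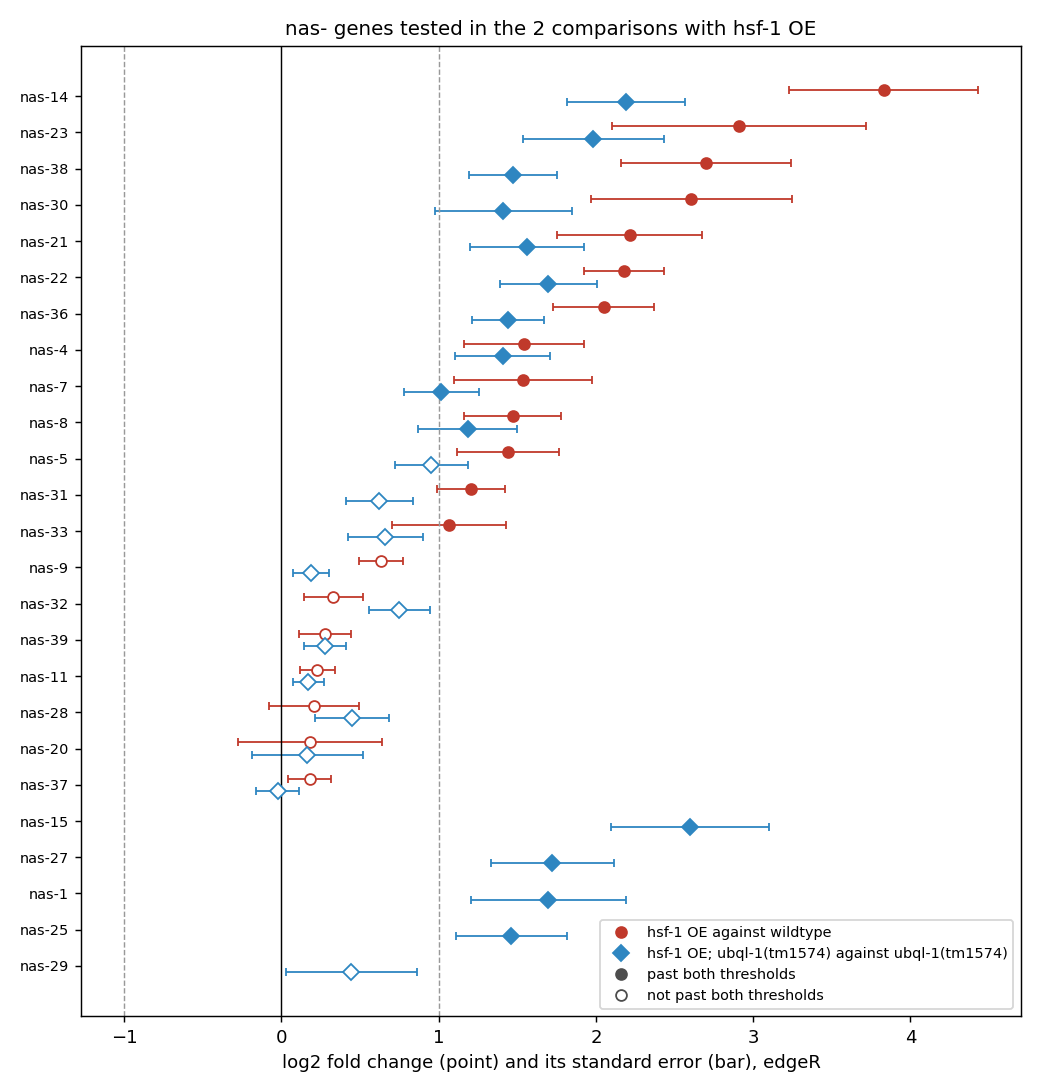
Log2 fold changes (horizontal axis, with standard errors as bars) of the *nas-* genes tested in *hsf-1* OE against wildtype (circles) and in the double strain against *ubql-1(tm1574)* (diamonds), filled where past both thresholds, with dashed lines at -1 and 1. The filled symbols all lie on the right, from 1.02 for *nas-7* in the double strain to 3.83 for *nas-14* in *hsf-1* OE, and *nas-37* and *nas-20* lie near 0 in both.

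Among the 14 members that did not pass the filter in this comparison, several were nearly silent in wildtype and not in *hsf-1* OE. *nas-15* had 4.92, 55.8, 77 and 239 normalised counts in *hsf-1* OE, against 1.2, 1.19, 0 and 7.31 in wildtype, so 3 of the 4 libraries of *hsf-1* OE lay far above and replicate 1 did not. *nas-1* had 6.89, 3.6, 42.1 and 15.7 normalised counts in *hsf-1* OE, against 1.2, 4.77, 0 and 1.83 in wildtype, and *nas-25* had 6.89, 16.2, 19.5 and 24.5, against 2.4, 4.77, 8.05 and 7.31. *nas-27* had 4.92, 5.4, 19.5 and 25.4 normalised counts in *hsf-1* OE, against 7.21, 1.19, 5.37 and 4.57 in wildtype. Within *hsf-1* OE, replicate 1 of *nas-15* and *nas-25*, replicate 2 of *nas-1*, and replicates 1 and 2 of *nas-27* fell in the wildtype range. DESeq2, which keeps these genes, called *nas-1*, *nas-6*, *nas-15* and *nas-25* higher as well, and 16 members in all, where it called 14.2% of all genes higher. *nas-29* had 7.88, 12.6, 13.3 and 25.4 normalised counts in *hsf-1* OE, against 4.81, 7.16, 6.71 and 7.31 in wildtype, without overlap. It failed the filter in this comparison and was called higher in the joint fit of all 16 libraries and in the fits without replicate 1 of *hsf-1* OE or without replicate 2, 3 or 4 of wildtype. The 8 members that passed the filter in none of the comparisons were *nas-3*, *nas-10*, *nas-12*, *nas-13*, *nas-16*, *nas-17*, *nas-19* and *nas-24*, and none of their libraries exceeded 31 counts.

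Across all 34 members, the 4 libraries of *hsf-1* OE lay above the 4 of wildtype in 11 and below them in 0. For all genes tested the shares were 28.5% above and 31% below. The shares cover only genes that passed the filter on low counts, whereas 14 of the 34 members failed it. The bases differ, so the count above cannot be set directly against the share of all genes. Of the 13 members that rose, 8 lay above without overlap, and no member lay below.

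The same step was measured a second time with other libraries, in the double strain against *ubql-1(tm1574)*. Here 14 of the 34 members rose and 0 fell, of 25 that passed the filter, while 12.8% of all 15197 genes tested rose and 1.87% fell. They were *nas-1*, *nas-4*, *nas-7*, *nas-8*, *nas-14*, *nas-15*, *nas-21*, *nas-22*, *nas-23*, *nas-25*, *nas-27*, *nas-30*, *nas-36* and *nas-38*. Of the 21 members with a mean of 10 or more normalised counts in *ubql-1(tm1574)*, 10 rose, against 10.4% of all genes of that level. The 4 libraries of the double strain lay above those of *ubql-1(tm1574)* in 13 of the 34 members and below in 0. For all genes tested the shares were 23% and 29.5%. These shares cover only genes that passed the filter, which 9 of the 34 members failed, so the bases differ. Among members with at least 10 normalised counts in *ubql-1(tm1574)* the median log2 fold change was 0.95, and 0.07 for all genes of that level. The housekeeping scaling moved the median gene by 0.28 here, and 16 members and 19.7% of all genes then rose.

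The 2 comparisons share no library, though their replicate numbers run in parallel. 10 members rose in both, which is 76.9% of those that rose against wildtype and 71.4% of those that rose in the mutant background. For all genes these shares were 46.2% and 79.6%. Of the 10, *nas-14*, *nas-21* and *nas-23* averaged 9.58, 5.09 and 6.0 normalised counts in wildtype, under the level of 10 used above. *nas-21* and *nas-23* were under it in *ubql-1(tm1574)* too, at 8.78 and 6.93. So were *nas-1* and *nas-25*, which rose only in the mutant background, at 5.71 and 9.71. Such members can pass the filter through the group where they are high, and the shares were not restricted by level. Of the 20 members tested in both, 19 had positive log2 fold changes in both, and *nas-37* was the exception.

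Of the enzymes of the moult, *nas-36* had 129.5, 126, 162 and 167 normalised counts in the double strain, against 33.6, 50.6, 72.9 and 67.1 in *ubql-1(tm1574)*, without overlap and at a log2 fold change of 1.44 (SE 0.23, adjusted p = 0.000722). *nas-38* had 83.7, 95.5, 161 and 154 normalised counts in the double strain, against 50.5, 28.3, 60.2 and 45.6 in *ubql-1(tm1574)*, also without overlap, at 1.47 (SE 0.28, adjusted p = 0.00157). *nas-37* had 463, 693, 634 and 459 normalised counts in the double strain, against 576, 579, 635 and 592 in *ubql-1(tm1574)*. Its groups overlapped as they did without the mutation, at a log2 fold change of -0.02 (SE 0.14, adjusted p = 0.891). *nas-6*, the grinder enzyme, had 14.5, 7.14, 31.5 and 50.5 normalised counts in the double strain, against 2.24, 1.18, 7.63 and 4.03 in *ubql-1(tm1574)*, and *nas-39*, the tolloid homologue, had 231, 190.0, 217 and 236, against 167, 181, 183 and 220.1. *nas-39* overlapped (log2 fold change 0.28 (SE 0.13, adjusted p = 0.0916)), and *nas-6*, too low for the edgeR filter, passed in DESeq2 (adjusted p = 0.000406).

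*nas-15* had the largest fitted change, with 35.7, 56.2, 148 and 175 normalised counts in the double strain, against 24.7, 13, 22.1 and 10.7 in *ubql-1(tm1574)*, at 2.60 (SE 0.50, adjusted p = 0.00173). *nas-14* had 93.8, 29.4, 81.5 and 70.6 normalised counts in the double strain, against 22.4, 16.5, 13.6 and 9.39 in *ubql-1(tm1574)*, at 2.19 (SE 0.37, adjusted p = 0.00103). Both were free of overlap, and the very high replicate 1 seen for *nas-14* in *hsf-1* OE had only a mild counterpart here. *nas-23* had 17.9, 18.7, 24.2 and 45 normalised counts in the double strain, against 2.24, 5.89, 10.2 and 9.39 in *ubql-1(tm1574)*, at 1.98 (SE 0.45, adjusted p = 0.0037), and *nas-30* had 59.2, 90.1, 215 and 217, against 24.7, 53, 77.2 and 73.8, at 1.41 (SE 0.43, adjusted p = 0.0163). *nas-23* did not overlap. *nas-30* did, in replicate 1 of the double strain, and its call was lost without replicate 3 or replicate 4 of the double strain (adjusted p = 0.0516 and 0.0528).

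Of the neighbours on chromosome V, *nas-21* and *nas-22* rose here too. *nas-21* had 30.1, 15.2, 25 and 33.2 normalised counts in the double strain, against 8.97, 9.42, 12.7 and 4.03 in *ubql-1(tm1574)*, at 1.56 (SE 0.36, adjusted p = 0.0041). *nas-22* had 39.1, 33, 29.9 and 54.7 normalised counts in the double strain, against 8.97, 13, 17.8 and 9.39 in *ubql-1(tm1574)*, at 1.70 (SE 0.31, adjusted p = 0.00134). Both were free of overlap, whereas *nas-20*, with 220.0, 309.6, 98.4 and 318 normalised counts in the double strain, against 251, 302, 119 and 213 in *ubql-1(tm1574)*, was not (log2 fold change 0.17 (SE 0.35, adjusted p = 0.695)).

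*nas-1*, *nas-25* and *nas-27*, too low to be tested against wildtype, were tested here. *nas-1* had 13.4, 19.6, 25.8 and 19.4 normalised counts in the double strain, against 3.36, 2.36, 14.4 and 2.68 in *ubql-1(tm1574)*, at 1.70 (SE 0.49, adjusted p = 0.0125). *nas-25* had 12.3, 29.4, 34.7 and 24.9 normalised counts in the double strain, against 11.2, 7.07, 8.48 and 12.1 in *ubql-1(tm1574)*, at 1.46 (SE 0.36, adjusted p = 0.00525). *nas-27* had 34.6, 17.8, 44.4 and 38.1 normalised counts in the double strain, against 11.2, 3.53, 12.7 and 14.8 in *ubql-1(tm1574)*, at 1.72 (SE 0.39, adjusted p = 0.00386). *nas-25* and *nas-27* did not overlap, and for *nas-1* replicate 3 of *ubql-1(tm1574)* alone reached into the range of the double strain.

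*nas-4* had 72.6, 72.3, 175 and 104 normalised counts in the double strain, against 38.1, 34.2, 54.3 and 38.9 in *ubql-1(tm1574)*, at 1.41 (SE 0.30, adjusted p = 0.00282), although C05D11.5, with which it shares exonic bases, also had a log2 fold change of 1.12 here (adjusted p = 0.000586). *nas-8* had 68.1, 45.5, 119 and 111 normalised counts in the double strain, against 32.5, 38.9, 54.3 and 30.9 in *ubql-1(tm1574)*, at 1.18 (SE 0.31, adjusted p = 0.00792). *nas-7* had 179.8, 137, 278 and 289 normalised counts in the double strain, against 91.9, 104, 126 and 134 in *ubql-1(tm1574)*, at 1.02 (SE 0.24, adjusted p = 0.00451). *nas-4* and *nas-7* did not overlap and *nas-8* did. The calls of *nas-7* and *nas-8* lay on the edge of the fold threshold: in the blocked fit (replicate pairing), *nas-7* had 0.98 (adjusted p = 0.000156), and without replicate 3 of the double strain *nas-8* had 0.999, both under 1.

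*nas-5*, *nas-31* and *nas-33*, which rose against wildtype, were under the fold threshold here but passed on the adjusted p alone, as 31.5% of all genes did in this direction. *nas-5* had 56.9, 50.9, 52.4 and 54 normalised counts in the double strain, against 32.5, 17.7, 35.6 and 28.2 in *ubql-1(tm1574)*, without overlap, at 0.95 (SE 0.23, adjusted p = 0.00511). *nas-31* had 53.6, 65.1, 87.1 and 78.9 normalised counts in the double strain, against 43.7, 40.0, 59.4 and 49.7 in *ubql-1(tm1574)*, at 0.62 (SE 0.21, adjusted p = 0.026), and *nas-33* had 58.1, 36.6, 78.3 and 58.1, against 41.5, 40.0, 34.8 and 36.2, at 0.66 (SE 0.24, adjusted p = 0.0328). In both of these the groups overlapped in 1 library of the double strain. *nas-32*, which had not passed against wildtype, was higher by 0.75 (SE 0.19, adjusted p = 0.00682) without overlap. *nas-9* and *nas-11* had log2 fold changes of 0.19 and 0.17 (adjusted p = 0.166 and 0.148).

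With the *ubql-1(tm1574)* mutation on its own, no member passed both thresholds in the unpaired edgeR test, and 2 did when libraries were paired by replicate number. Against wildtype, 0 of the 34 members rose or fell in edgeR's quasi-likelihood test, of 17 that passed the filter. 2 had an unadjusted p under 0.05, as 33.1% of all genes did, and DESeq2 called 2, *nas-15* and *nas-38*, and 2.57% of all genes higher. Of all 14183 genes tested, 2.41% changed. Among the 17 members tested, the 3 with the largest fold changes were among those that rose with *hsf-1* OE. *nas-38* had 50.5, 28.3, 60.2 and 45.6 normalised counts in *ubql-1(tm1574)*, against 19.2, 10.7, 26.8 and 31 in wildtype, at 1.07 (SE 0.34, adjusted p = 0.0744). *nas-30* had 24.7, 53, 77.2 and 73.8 normalised counts in *ubql-1(tm1574)*, against 20.4, 9.54, 48.3 and 36.5 in wildtype, at 1.0 (SE 0.47, adjusted p = 0.174). *nas-36* had 33.6, 50.6, 72.9 and 67.1 normalised counts in *ubql-1(tm1574)*, against 24, 28.6, 42.9 and 33.8 in wildtype, at 0.80 (SE 0.28, adjusted p = 0.0893). In all 3, single libraries of the genotypes overlapped. Pairing the libraries by replicate number (a block in the fit), *nas-38* passed both thresholds (log2 fold change 1.08, adjusted p = 0.0149), as did *nas-30* (1.03, adjusted p = 0.0461), and the count was then 2, with 5.32% of all genes higher. *nas-20* had 251, 302, 119 and 213 normalised counts in *ubql-1(tm1574)*, against 536, 488, 130.2 and 277 in wildtype, and was lower in *ubql-1(tm1574)* in each pair of the same number. Its log2 fold change was -0.70 (SE 0.42, adjusted p = 0.271), and in the blocked fit -0.60 (SE 0.16, adjusted p = 0.0288), past the adjusted p alone and under the fold threshold. On the adjusted p alone, 3 of the 17 members tested were higher and 1 lower in that fit, and 0 without the pairing. Of all 14183 genes tested, 4287 passed the adjusted p in that fit, 2290 of them higher, and 1178 passed without the pairing.

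*nas-15* and *nas-6* were too low to be tested here. *nas-15* had 24.7, 13, 22.1 and 10.7 normalised counts in *ubql-1(tm1574)*, against 1.2, 1.19, 0 and 7.31 in wildtype, without overlap, and DESeq2 called it higher (adjusted p = 0.0102). *nas-6* had 15 counts in the 4 libraries of *ubql-1(tm1574)* and 1 in those of wildtype, a ratio of 14.4 (exact 95% interval 2.21 to 605, counting error only). These 2 were the members whose libraries did not overlap, 2 of 34, where 11.1% of all genes tested lay higher without overlap and 11.5% lower. Both members failed the filter and the shares cover only genes that passed it, so the count cannot be set directly against them.

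Within *hsf-1* OE the mutation changed no member past both thresholds, with or without the pairing. In the double strain against *hsf-1* OE, 0 of the 34 members rose or fell in edgeR's test, of 26 that passed the filter, 4 had an unadjusted p under 0.05, as 11.5% of all genes did, and DESeq2 called 0. Of all 15555 genes tested, 0.611% changed. The members with an unadjusted p under 0.05 were *nas-32*, *nas-22*, *nas-9* and *nas-27*. *nas-32* had 61.4, 94.6, 94.4 and 85.8 normalised counts in the double strain, against 54.1, 54.9, 53.4 and 43 in *hsf-1* OE, all above and at 0.69 (SE 0.20, adjusted p = 0.2). *nas-9* had 409.8, 446, 511 and 498 normalised counts in the double strain, against 560.1, 635, 556 and 527 in *hsf-1* OE, all below and at -0.31 (SE 0.12, adjusted p = 0.352). Neither passed the adjustment. The 4 libraries of the double strain lay above those of *hsf-1* OE in 2 of the 34 members, *nas-32* and the nearly silent *nas-3*, and below in 1, *nas-9*, while 3.42% of all genes lay above and 3.12% below. These shares cover only genes that passed the filter, which 8 of the 34 members failed, *nas-3* among them. *nas-22* had 39.1, 33, 29.9 and 54.7 normalised counts in the double strain, against 49.2, 70.2, 71.9 and 70.4 in *hsf-1* OE, at -0.76 (SE 0.26, adjusted p = 0.275), and *nas-27* had 34.6, 17.8, 44.4 and 38.1, against 4.92, 5.4, 19.5 and 25.4, at 1.26 (SE 0.53, adjusted p = 0.402), each with overlapping libraries.

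For the interaction, which asks whether the change with *hsf-1* OE differs between the mutant and the wildtype background, 0 of the 34 members passed in a model of all 16 libraries, of 26 tested. 1 member had an unadjusted p under 0.05, as 19.4% of all genes did, DESeq2 called 0, and 0.55% of all genes passed. That member was *nas-6*, with an interaction of -3.26 (SE 1.48, adjusted p = 0.241). In the blocked fit (replicate pairing) it passed (-3.47, adjusted p = 0.0427), but it had a single read in wildtype, and a fitted fold change against so few reads depends on the prior count. Of the other members *nas-14* had -1.60 (SE 0.79, adjusted p = 0.276) and *nas-38* -1.12 (SE 0.61, adjusted p = 0.323), so the smaller fold changes of the mutant background were not shown to differ from those of the wildtype background.

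The replicates of *hsf-1* OE and of the double strain were uneven. In *hsf-1* OE, 18 of the 26 members tested over all 16 libraries had both replicates 3 and 4 above both replicates 1 and 2, and 4 had them below, while 21.8% of all genes had them above and 31.4% below. In the double strain 15 members had them above and 0 below, against 26.5% and 34.1% of all genes. In *ubql-1(tm1574)* 11 members had them above and 4 below, against 28.3% and 22.4% of all genes. In wildtype 8 members had them above and 2 below, against 27% and 19% of all genes. *nas-4*, *nas-7*, *nas-30* and *nas-36* were above in every genotype. Fits with only part of the replicates, chosen after the data had been seen, gave 16 members higher in *hsf-1* OE than in wildtype over replicates 3 and 4, and 9 over replicates 1 and 2, where 19.4% and 19% of all genes were higher. In the double strain against *ubql-1(tm1574)* these counts were 15 and 10, where 12.9% and 11.6% of all genes were higher. *nas-4*, *nas-14*, *nas-22*, *nas-36* and *nas-38* were called in all 4 of these fits. The share of all genes called in all 4 was not counted. In *hsf-1* OE against wildtype, 26 members were tested over replicates 3 and 4, and 19 over replicates 1 and 2. For the double strain against *ubql-1(tm1574)* these numbers were 27 and 25, so the counts have different bases.

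Other genes of the moult were higher as well. Beside the gene lists that follow, 22.6% of all genes tested rose and 3.6% fell in *hsf-1* OE against wildtype. These shares were 12.8% and 1.87% in the double strain against *ubql-1(tm1574)*, and 2.31% and 0.0987% in *ubql-1(tm1574)* against wildtype. Of 17 genes of moulting and the apical matrix, 11 rose and 0 fell in *hsf-1* OE against wildtype, with a median log2 fold change of 2.94, where the median of all genes tested was 0.28. They included *mlt-10*, a nematode moulting protein, at 2.87 (SE 0.87, adjusted p = 0.0155), and the zona pellucida protein gene *noah-1* at 3.05 (SE 0.58, adjusted p = 0.00151). In the double strain 11 rose against *ubql-1(tm1574)*, and in *ubql-1(tm1574)* 9 rose against wildtype. Their summed level was 3813, 6060.1, 7352 and 17562 normalised counts in replicates 1 to 4 of *hsf-1* OE, against 2720.1, 3295, 3271 and 3203 in wildtype. In *hsf-1* OE replicate 1 was the lowest and replicate 4 by far the highest, the order that *nas-15*, *nas-23* and *nas-6* also showed. *nhr-23*, a nuclear receptor that drives moulting, did not rise (-0.34 (SE 0.07, adjusted p = 0.00316)), and of 7 transcription factors and timers of the moult 2 did, *lin-42* (2.63 (SE 0.72, adjusted p = 0.00994)) and *bed-3* (1.83 (SE 0.65, adjusted p = 0.0305)). A count of 2 of 7 is near the 22.6% of all genes that rose.

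The collagens that shape the body had the largest median of the lists. 18 of 19 rose in *hsf-1* OE against wildtype, with a median log2 fold change of 5.09. Their summed level was 3621, 10399, 19862 and 52556 normalised counts in *hsf-1* OE, against 1386, 1109, 2399.7 and 1575 in wildtype. In the double strain it was 9305, 9563, 24496 and 23462, against 3724, 2708, 7147 and 5078 in *ubql-1(tm1574)*. Replicates 3 and 4 were the highest in every genotype, as for *nas-30*. For *nas-38* they were the highest in all genotypes but *ubql-1(tm1574)*.

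Markers of some other tissues differed as well. In *hsf-1* OE against wildtype, 0 of 4 pharynx, 0 of 3 body wall muscle and 0 of 4 neuron markers tested passed both thresholds. Their median log2 fold changes were 0.25, 0.41 and 0.59. Of 6 intestine markers 1 rose (median 0.55). Of the adult epidermis, the tissue that makes the cuticle, *col-7* and *col-62* rose in *hsf-1* OE against wildtype, at 2.79 (SE 0.69, adjusted p = 0.00599) and 2.68 (SE 0.57, adjusted p = 0.00267), and *col-19* had 0.13 (SE 0.10, adjusted p = 0.248). The summed levels of these 3 were 53778 to 69046 normalised counts in *hsf-1* OE and 46417 to 56678 in wildtype, with a median log2 fold change of 2.68. Of these 3, 2 rose in the double strain against *ubql-1(tm1574)*, again *col-7* and *col-62* (median 1.59). Of 4 germline markers 1 fell in *hsf-1* OE against wildtype, *glp-1*, at -1.09 (SE 0.10, adjusted p = 8.5e-05) (median of the 4, -0.76). All 6 oocyte and eggshell markers fell in *hsf-1* OE against wildtype (median log2 fold change -1.22), with summed levels of 34077 to 63572 normalised counts in *hsf-1* OE, 108334 to 151087 in wildtype, 48282 to 73850.4 in the double strain and 97532 to 112217 in *ubql-1(tm1574)*. Replicates 3 and 4 were the lowest in both strains with the transgene and in *ubql-1(tm1574)*, but not in wildtype. 6 of 7 sperm markers rose, with 10377 to 14577 normalised counts in *hsf-1* OE, 2979 to 7559 in wildtype, 10059 to 11635 in the double strain and 7185 to 11035 in *ubql-1(tm1574)*. With *hsf-1* OE in the mutant background (the double strain against *ubql-1(tm1574)*), where 14 members rose, 1 of 7 sperm markers rose (median 0.33), and 0 of 6 oocyte and eggshell markers passed both thresholds (median -0.68). None of the listed markers of oocyte, eggshell and sperm was at 0 in any genotype. Whether the stage or the tissue content of the worms had a part in the rise of the *nas-* genes was not tested.

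**Figure D4:**
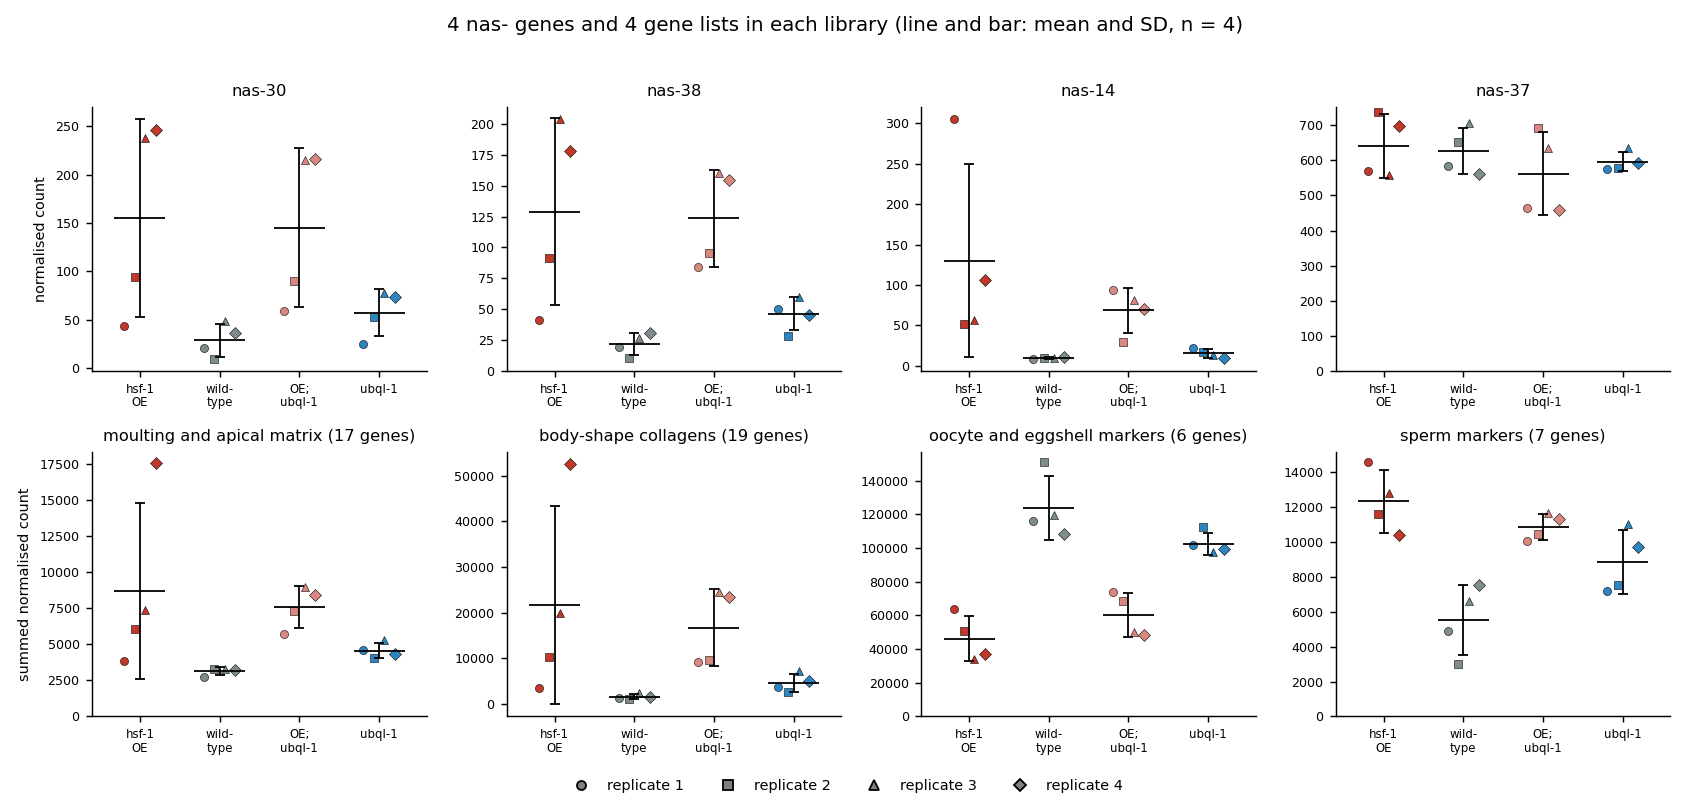
Normalised counts of *nas-30*, *nas-38*, *nas-14* and *nas-37* (upper panels) and summed normalised counts of 4 gene lists (lower panels) in each library of *hsf-1* OE, wildtype, the double strain (OE; *ubql-1*) and *ubql-1(tm1574)*, with points as libraries and lines with bars as mean and SD (n = 4). In the strains with the transgene *nas-30*, *nas-38*, the moulting list and the collagens are highest in replicates 3 and 4 and the oocyte markers lowest, while *nas-14* is highest in replicate 1 and *nas-37* shows no such order. *nas-30* and the collagens are highest in replicates 3 and 4 in wildtype and *ubql-1(tm1574)* as well.

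Astacins that carry other symbols and further enzymes of the matrix were compared as lists. *dpy-31*, the procollagen C-proteinase of the worm, rose in *hsf-1* OE against wildtype (1.07 (SE 0.31, adjusted p = 0.012)) and was at 0.55 (SE 0.21, adjusted p = 0.0393) in the double strain against *ubql-1(tm1574)*. *toh-1*, named as a tolloid homologue, rose against wildtype too (1.24 (SE 0.16, adjusted p = 0.000252)), and *hch-1*, the hatching enzyme, was too low to be tested. Of 11 further secreted metalloproteases, of the ADAMTS and matrix metalloprotease kinds, 9 were tested, and 4 rose and 0 fell: *adt-1*, *adt-3*, *zmp-1* and *zmp-2*, with *zmp-2* at 3.32 (SE 0.78, adjusted p = 0.00453). Of all genes tested, 22.6% rose in this comparison. In the double strain 4 of the 10 metalloproteases tested rose against *ubql-1(tm1574)*, where 12.8% of all genes rose. Of 7 enzymes that process collagen, 2 rose against wildtype, the prolyl hydroxylase subunits *dpy-18* (1.01 (SE 0.31, adjusted p = 0.0177)) and *phy-2* (1.18 (SE 0.22, adjusted p = 0.00133)), and the median of the list was 0.61 there and 0.32 in the double strain against *ubql-1(tm1574)*. That count of 2 of 7 was near the 22.6% of all genes. Neither of the TIMP-like inhibitors *cri-2* and *timp-1* passed both thresholds, with log2 fold changes of 0.54 (SE 0.12, adjusted p = 0.00274) and 0.28 (SE 0.23, adjusted p = 0.308).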

How the data were processed

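RNA of whole worms was enriched for poly-A tails and read from both ends. Per the submitters' processing notes the authors used HISAT2 2.0.5 and featureCounts 1.5.0-p3 on WBcel235. Whether counting used the strand is not given in the sources used here. The deposited values used here are raw counts per gene, beside the gene length that the authors listed. The 3 deposited tables, of 8 libraries each, were joined into 23758 genes. A gene that a table leaves out got a count of 0 in the libraries for which no table lists it, which was 4.57% of all values. The authors' 48 remaining columns by library were left out, as were their group means, fold changes and p-values.

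Tests were run in edgeR 4.0.16 (limma 3.58.1, R 4.3.3): a two-sided quasi-likelihood F test on the 8 libraries of a comparison, with TMM scaling, the filterByExpr filter on low counts and Benjamini-Hochberg adjustment over all genes tested. A call needed both an adjusted p below 0.05 and a log2 fold change above 1 in size. The double strain and *ubql-1(tm1574)* stand in different tables, whose shared libraries held the same counts, and the interaction used all 16 libraries. Alternatives were DESeq2 1.42.0, other scalings, no filter, a replicate block, a joint fit, no fold threshold, each library left out, and, chosen after the data had been seen, fits on replicates 1 and 2 or 3 and 4. Other steps used scipy 1.17.1, pandas 2.3.3 and numpy 2.4.6 under Python 3.11.15.

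Replicate numbers come from the labels. Over 11772 genes, deviations from the group mean correlated by at least 0.108 (*hsf-1* OE and wildtype), 0.233 (*ubql-1(tm1574)* and wildtype), 0.519 (double strain and *hsf-1* OE) and 0.222 (double strain and *ubql-1(tm1574)*) between libraries of the same number. All exceeded 0.1, so the numbers were taken to pair the libraries. The main fits did not use this pairing, and the replicate block was run as an alternative. For *ubql-1(tm1574)* against wildtype, 1178 genes passed the adjusted p in the main fit and 4287 with the block.

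The members, gene lists and marker lists were chosen with earlier results of these data known. Values by library are given for members called in any of the 5 tests as first fitted, for those with an established role and for the 5 highest per length in wildtype, and the few others given so were chosen after their values were seen. In simulated data with 200 changed genes (log2 fold change 2), 182 were recovered for *hsf-1* OE against wildtype and 195 for the double strain against *ubql-1(tm1574)*. There as many genes rose as fell and libraries were drawn independently. In the data far more genes passed as higher than as lower, and replicates were correlated, so this recovery does not give that of the members. Exact intervals of count ratios cover counting error only.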

Additional observations from a re-analysis of the deposited data

Results flagged for a closer look

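In 4 of 92 groups of 4 libraries, over 23 members, 1 library lay far from the other 3, and chance gives about 1 in 20 such groups. *nas-1* in replicate 3 of *ubql-1(tm1574)* had 14.4 normalised counts, and the next library had 3.36. *nas-15* in replicate 4 of wildtype had 7.31, next to 1.2. *nas-6* in replicate 4 of wildtype had 0.913, which is a single read where the other libraries had none. *nas-22* in replicate 1 of *hsf-1* OE had 49.2, below the next at 70.2.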

How the results depend on the processing

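The counts of members that rose stayed within 1.5 times of those reported under every alternative run: 12 to 18 in *hsf-1* OE against wildtype by scaling, tool, filter, block or joint fit (13 with the replicate block) and 12 to 17 with 1 library left out, 12 to 16 in the double strain against *ubql-1(tm1574)* (13 with the block) and 11 to 16 with 1 library left out. With no fold threshold they were 14 and 18, of 20 and 25 members tested. By that rule 38.6% and 31.5% of all genes tested were higher. For *ubql-1(tm1574)* against wildtype the count of 0 became 2 with DESeq2, 1 with no filter, 2 with the block and 0 to 1 with 1 library left out (*nas-15* without replicate 4 of wildtype); for the interaction it became 1 with the block. The block changed no other count by that much, and no count in the double strain against *hsf-1* OE changed. The cause was not tested. Fold changes near 0 turned sign: in *hsf-1* OE against wildtype *nas-20* (-0.022 in DESeq2, -0.32 to 0.45 with 1 library left out), *nas-37* (-0.026 in DESeq2, -0.0027 over replicates 3 and 4, -0.012 to 0.23 with 1 left out), *nas-11* (-0.10 over replicates 3 and 4) and *nas-32* (-0.017 there); in the double strain against *ubql-1(tm1574)* *nas-20* (-0.0093 over replicates 1 and 2, -0.042 to 0.43 with 1 left out) and *nas-37* (0.25 with the housekeeping scaling, 0.052 over replicates 1 and 2, -0.14 to 0.064 with 1 left out). The 8 members that passed the filter in no comparison had too few counts for the edgeR test, so nothing is said of their change. Each genotype was 1 strain of whole worms, and *hsf-1* OE cannot be told apart from other features of its strain.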

Other observations

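Values of 3 members follow, chosen after they were seen. *nas-20*, among the most abundant astacins of the adult, was lowest in replicate 3 of every genotype, with 329, 636, 198 and 316 normalised counts in replicates 1 to 4 of *hsf-1* OE, 220.0, 309.6, 98.4 and 318 in the double strain, 251, 302, 119 and 213 in *ubql-1(tm1574)* and 536, 488, 130.2 and 277 in wildtype. *nas-3* was highest in replicates 1 and 2 of wildtype and replicate 1 of *ubql-1(tm1574)*. It had 1.97, 1.8, 1.03 and 0.978 in *hsf-1* OE, 3.35, 5.35, 4.03 and 2.08 in the double strain, 12.3, 2.36, 0.848 and 1.34 in *ubql-1(tm1574)* and 20.4, 10.7, 0 and 1.83 in wildtype. *nas-13* had 0, 8.1, 5.13 and 30.3 in *hsf-1* OE and 5.58, 4.46, 17.8 and 18 in the double strain, against 2.4, 1.19, 0 and 2.74 in wildtype and 2.24, 3.53, 5.09 and 1.34 in *ubql-1(tm1574)*, so it was highest in replicate 4 of *hsf-1* OE and in replicates 3 and 4 of the double strain. It failed the edgeR filter, but in the double strain against *ubql-1(tm1574)* it was called higher with DESeq2 (adjusted p = 0.0324), with no filter and over replicates 3 and 4.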
